A study of Danio rerio with 17 samples.

Results

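Matrix metalloproteinases (MMPs) are zinc enzymes that cut collagens and other proteins outside the cell, and tissue inhibitors of metalloproteinases (TIMPs) are small secreted proteins that bind and block them. The genes described here were fixed by name: the gelatinase genes mmp2 and mmp9, the collagenase gene mmp13a, the membrane-type genes mmp14a, mmp14b and mmp15b, and the inhibitor genes timp2a and timp2b. Of these 8 genes 7 were found among the 15316 gene names of the files, and all 7 were among the 13539 genes that passed the filter on low counts. The gene mmp15b was not analysed here. The 8 genes, and the gene lists used below, were chosen with earlier results of these data known. Their shares called are therefore given as descriptions beside the shares of all genes, not as tests.

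Some background helps to place the 7 genes. In mammals, MMP2 is made by connective tissue cells without much stimulus and is switched on at the cell surface by MMP14, with TIMP2 as the bridge that holds the inactive enzyme in place, so that TIMP2 acts both as a helper and as an inhibitor. MMP9 and MMP13 are induced in wounds and inflammation, and their mammalian genes are known targets of the AP-1 transcription factors. In zebrafish, mmp9 and mmp13a are known from leukocytes and from wounded or regenerating fin epidermis. The paired names a and b are duplicate zebrafish copies of a single mammalian gene.

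The libraries came from pools of 10 whole AB line zebrafish embryos at 72 hours post fertilization (hpf). There were 5 control pools, 6 glucose pools kept in 3% glucose from 24 hpf, and 6 FFA pools whose yolk was injected at 24 hpf with a BODIPY-labelled lipid in canola oil at 1 mg/ml. No label says whether control embryos received an injection, and none names an osmotic control. The lipid cannot be told apart from the injection on these labels, nor glucose from osmotic strength. Groups follow the sample titles, and for 11 of the 17 libraries the treatment tag names a different group. Most of these trade places: glucose replicates 2 to 6 carry the FFA tag, FFA replicates 2 to 6 the glucose tag, and glucose replicate 1 the control tag. Were the tags right, what is given here for FFA replicates 2 to 6 would belong to glucose. FFA replicate 1 is FFA by both title and tag.

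Counts in genes ranged from 10.2 to 16.7 M per library. Levels are given as CPM, counts scaled to a common library total, and cannot be compared between genes because no transcript lengths were used. Calls rest on edgeR's quasi-likelihood test with Benjamini-Hochberg adjustment over all 13539 genes, at an adjusted p under 0.05, and each adjusted p is from it unless another test is named. Parents and clutches of the pools are not labelled. A p-value here sets a difference between groups against the spread between these pools only, and that spread may be technical. In pools of whole embryos, more cells of a type and more RNA per cell cannot be told apart.

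The 7 genes did not share a pattern. In FFA pools mmp9 and mmp13a were each about 3.5 times their control level, with no overlap between the libraries of the groups. In glucose pools neither differed from control beyond the spread. The genes mmp2, mmp14a, mmp14b and timp2a overlapped between all 3 groups, and timp2b was high in some FFA pools and at the control level in others.

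Of the 7 genes 2 were called in FFA against control, both higher, and 3 had an unadjusted p under 0.05. Of all genes 1.82% were called, 149 higher and 97 lower, and 10.2% had an unadjusted p under 0.05. In FFA against glucose the same 2 genes were called, both higher, and 4 of the 7 had an unadjusted p under 0.05. Of all genes 17.0% were called, 1081 higher and 1218 lower, and 30.8% had an unadjusted p under 0.05. In glucose against control none of the 7 was called by edgeR, none had an unadjusted p under 0.05, and DESeq2 called none. Of all genes edgeR called 10.9%, 795 higher and 679 lower, and 25.1% had an unadjusted p under 0.05. The median log2 fold change of the 7 genes was 0.10 in FFA against control, 0.18 in glucose against control and 0.15 in FFA against glucose. Over all genes these medians were -0.01, -0.003 and 0.001.

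**Figure D1:**
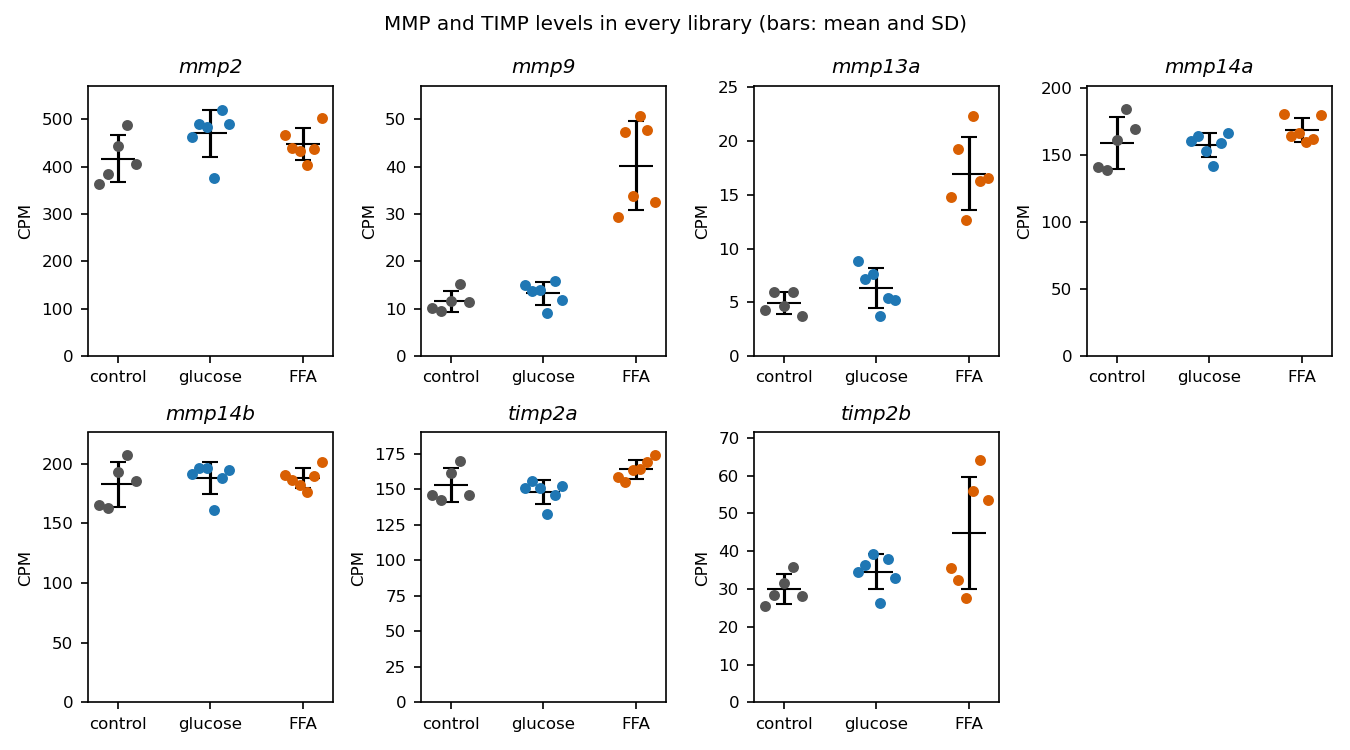
Level of each of the 7 genes in CPM (vertical axes, from 0) in the 5 control, 6 glucose and 6 FFA libraries, 1 point per library, with bars for the mean and SD. All 6 FFA libraries lie above all other libraries for mmp9 (29.3 to 50.8 CPM) and mmp13a (12.7 to 22.3 CPM), while the groups overlap for the other 5 genes.

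The gelatinase gene mmp9 stood at 10.0, 9.47, 11.5, 15.2 and 11.4 CPM in control replicates 1, 2, 3, 4 and 6. In glucose its lowest, median and highest values were 9.03, 13.8 and 15.8 CPM. In FFA replicates 1 to 6 it stood at 29.3, 47.4, 33.8, 50.8, 47.7 and 32.6 CPM. The lowest FFA pool thus lay well above the highest pool of either other group, and within FFA replicates 2, 4 and 5 (47.4 to 50.8 CPM) stood above replicates 1, 3 and 6 (29.3 to 33.8 CPM).

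The group means of mmp9 were 11.5 ± 2.25 CPM for the 5 control pools, 13.2 ± 2.46 for the 6 glucose pools and 40.3 ± 9.35 for the 6 FFA pools, where ± is the SD, as for all levels given here. The fitted log2 fold change in FFA against control was 1.81 ± 0.177 (SE, adjusted p = 4.46e-05), a 3.50-fold rise with a 95% interval of 2.70 to 4.53. Against glucose the rise was 3.05-fold (95% interval 2.40 to 3.88, log2 1.61 ± 0.164, adjusted p = 7.77e-06). Ordered by p, mmp9 was number 2 of the 13539 genes in FFA against control and number 33 in FFA against glucose. Glucose against control gave 0.20 ± 0.177 (adjusted p = 0.525), with an interval of -0.18 to 0.57.

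The collagenase gene mmp13a rose with it, at lower counts. It stood at 4.24, 5.96, 4.62, 5.94 and 3.74 CPM in control replicates 1, 2, 3, 4 and 6, from 53 to 90 counts per library. In glucose the lowest, median and highest values were 3.74, 6.31 and 8.88 CPM. In FFA replicates 1 to 6 the values were 14.8, 19.2, 12.7, 22.3, 16.3 and 16.5 CPM, from 168 to 309 counts. The lowest FFA pool again lay above all control and glucose pools, and FFA replicate 4 was the highest library for both genes.

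The mmp13a means were 4.90 ± 1.01 CPM in control, 6.34 ± 1.88 in glucose and 17.0 ± 3.40 in FFA. The rise in FFA against control was 3.46-fold (95% interval 2.57 to 4.67, log2 1.79 ± 0.205, adjusted p = 0.000132), number 10 of all genes by p. Against glucose it was 2.67-fold (2.03 to 3.52, log2 1.42 ± 0.188, adjusted p = 9.63e-05). Glucose against control gave 0.37 ± 0.208 (adjusted p = 0.282, interval -0.07 to 0.81), so a rise in glucose as large as that in FFA lies outside the interval. Of the 7 genes these 2 had no overlap between FFA and control libraries, as had 2.30% of all genes. The same 2 had none between FFA and glucose, as had 8.69% of all genes, and 0 of the 7 had none between glucose and control, as had 6.90%.

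Leaving out any single library kept both calls. In FFA against control the log2 fold change ran from 1.73 to 1.93 for mmp9 and from 1.70 to 1.88 for mmp13a over the 11 libraries left out in turn. With the groups set by the treatment tags, both genes were called in tagged glucose against control, at 1.81 ± 0.236 (adjusted p = 0.00127) for mmp9 and 1.64 ± 0.289 (adjusted p = 0.00960) for mmp13a. In tagged FFA against control, where 5 of the 6 libraries are titled glucose, mmp9 lay at 0.37 ± 0.230 (adjusted p = 0.453). The high values thus lie in the libraries titled FFA, 5 of which are tagged glucose. FFA replicate 1, FFA by both title and tag, held 29.3 CPM of mmp9, where the libraries titled glucose held 9.03 to 15.8 CPM.

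**Figure D2:**
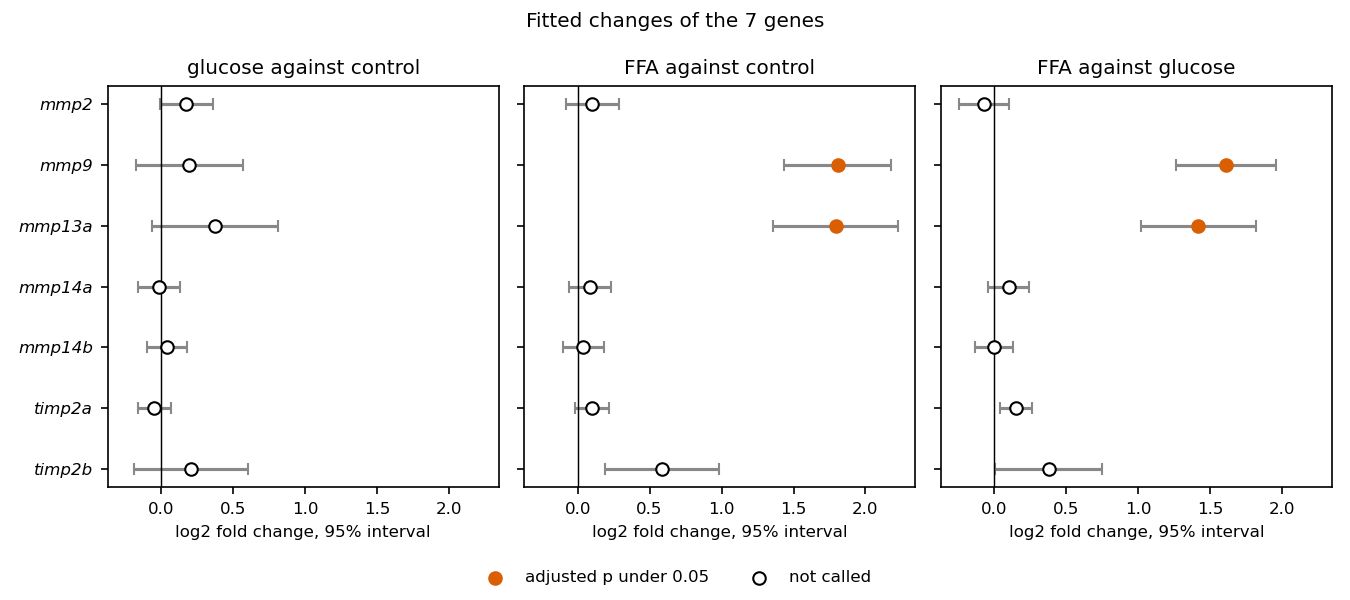
Fitted log2 fold change (horizontal axes) of each gene in the 3 comparisons, with bars for the 95% interval and filled points for genes called at an adjusted p under 0.05. The intervals of mmp9 and mmp13a lie above 1 in both comparisons that involve FFA, and those of mmp2, mmp14a, mmp14b and timp2a lie within 0.4 of 0 throughout.

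The second gelatinase gene, mmp2, did not share this pattern. Its control values were 364, 384, 444, 488 and 405 CPM in replicates 1, 2, 3, 4 and 6. The lowest, median and highest were 376, 487 and 519 CPM in glucose and 403, 438 and 503 CPM in FFA, so the 3 groups overlapped. The means were 417 ± 49.6, 471 ± 49.5 and 447 ± 34.1 CPM.

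The log2 fold change of mmp2 was 0.10 ± 0.0867 in FFA against control (adjusted p = 0.876, interval -0.08 to 0.28) and 0.18 ± 0.0868 in glucose against control (adjusted p = 0.219, interval -0.01 to 0.36). Without glucose replicate 4, the glucose library with the lowest mmp2, the latter was 0.23 ± 0.0755 and was called (adjusted p = 0.0482). It was called in no other of the 11 fits that left out a library.

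The membrane-type genes mmp14a and mmp14b, whose mammalian counterpart activates MMP2, did not differ between groups beyond the spread. In control replicates 1, 2, 3, 4 and 6 mmp14a stood at 141, 139, 162, 185 and 169 CPM. Its lowest, median and highest values were 142, 160 and 167 CPM in glucose and 160, 166 and 181 CPM in FFA. The change was -0.01 ± 0.0702 in glucose against control (interval -0.16 to 0.13) and 0.09 ± 0.0703 in FFA against control (interval -0.06 to 0.23).

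For mmp14b the control values were 165, 163, 193, 207 and 186 CPM. The lowest, median and highest were 161, 193 and 196 CPM in glucose and 176, 188 and 201 CPM in FFA. The changes were 0.04 ± 0.0671 and 0.04 ± 0.0671 in glucose and in FFA against control, with intervals of -0.10 to 0.18 for each. The groups overlapped in every comparison for both copies. No source used here says how reads matching both copies were counted, so the division of counts between mmp14a and mmp14b, and between timp2a and timp2b, is uncertain.

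The inhibitor gene timp2a stood at 146, 142, 161, 170 and 146 CPM in control replicates 1, 2, 3, 4 and 6. In glucose the lowest, median and highest values were 133, 151 and 156 CPM, and in FFA 155, 164 and 174 CPM. The FFA pools lay in the upper part of the control range or just above it, and the highest glucose pool just passed the lowest FFA pool. The change was 0.10 ± 0.0555 in FFA against control (adjusted p = 0.605, interval -0.02 to 0.22) and -0.05 ± 0.0555 in glucose against control (adjusted p = 0.638).

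Between the treatments, timp2a stood at 0.15 ± 0.0529 on the log2 scale in FFA against glucose (95% interval 0.04 to 0.26), which missed the threshold (adjusted p = 0.0636). This value sits close to the threshold: DESeq2 gave an adjusted p = 0.0235 and a fit of the 2 groups alone 0.0446. With single libraries left out it was called in 0 of 12 fits, at an adjusted p from 0.0601 to 0.115.

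The copy timp2b varied most within FFA. Control replicates 1, 2, 3, 4 and 6 held 25.5, 28.4, 31.6, 36.0 and 28.2 CPM. Glucose ran from 26.3 through a median of 35.5 to 39.3 CPM. FFA replicates 1 to 6 held 35.6, 32.5, 27.6, 55.9, 64.2 and 53.5 CPM. FFA replicates 4, 5 and 6 thus lay above every control and glucose library, while replicates 1, 2 and 3 lay within the control range.

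The mean of timp2b was 44.9 ± 14.9 CPM in FFA against 29.9 ± 3.99 in control and 34.6 ± 4.66 in glucose, a coefficient of variation of 33.1% in FFA, 13.3% in control and 13.5% in glucose. The fitted rise in FFA against control was 1.50-fold (95% interval 1.14 to 1.97). It was not called (log2 0.58 ± 0.188, unadjusted p = 0.00624, adjusted p = 0.164), and the adjusted p ran from 0.0529 to 0.336 with single libraries left out. The FFA libraries high in timp2b were only in part those high in mmp9: replicate 2 was high in mmp9 alone, replicate 6 in timp2b alone, and replicates 4 and 5 in both.

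Set side by side, the rises in FFA over control were 1.81 and 1.79 on the log2 scale for mmp9 and mmp13a, against 0.10 for timp2a and 0.58 for timp2b. The 95% intervals of mmp9 (1.43 to 2.18) and mmp13a (1.36 to 2.22) did not meet those of timp2a (-0.02 to 0.22) or timp2b (0.19 to 0.98). The summed level of the 7 genes was 958 ± 103 CPM in control, 1019 ± 83.6 in glucose and 1070.1 ± 51.5 in FFA.

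The other genes of the family were few among those analysed. Of 20 further MMP genes listed, 3 were in the files and 2 passed the filter. The gene mmp30 held 63.2 ± 15.9 CPM in control, 51.0 ± 4.74 in glucose and 61.3 ± 9.39 in FFA, and was called in no comparison (adjusted p = 0.169, 0.983 and 0.176 for glucose against control, FFA against control and FFA against glucose). The gene mmp23bb ran from 12.4 to 14.2 CPM in control, 10.5 to 13.8 in glucose and 12.8 to 14.4 in FFA and was called in FFA against glucose (0.20 ± 0.0681, adjusted p = 0.0486), a call that stood in 2 of the 12 fits that left out a library. The gene mmp21 held 1 to 11 counts per library and was not tested.

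Of 8 further inhibitor genes listed, 3 were in the files and 2 were tested. The gene timp4.3, a TIMP4 copy, had few counts, with 8 to 21 counts in control libraries, 1 to 8 in glucose and 6 to 17 in FFA. It was lower in glucose than in control (-1.88 ± 0.356, adjusted p = 0.00265) and higher in FFA than in glucose (1.34 ± 0.363, adjusted p = 0.0178), and FFA against control gave -0.54 ± 0.305 (adjusted p = 0.636). No single library left out ended either call. The gene a2ml, related to the broad protease trap alpha-2-macroglobulin, held 517 ± 94.1 CPM in control, 661 ± 139 in glucose and 643 ± 43.7 in FFA, with no call (adjusted p = 0.114 and 0.421 against control). The TIMP4 copy timp4.2 held 1 to 16 counts per library and was not tested.

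Proteins that act upstream of MMPs include the plasmin system, which cuts inactive MMPs, and furin, which activates the membrane-type enzymes. Against glucose the tetraspanin gene cd63 (0.35 ± 0.0861, adjusted p = 0.0100) was higher in FFA, and cttn, which encodes an actin regulator of invasive protrusions, was lower (-0.28 ± 0.0494, adjusted p = 0.000950). In glucose against control none of the 10 such genes tested was called by edgeR or DESeq2, and none had an unadjusted p under 0.05. Of all genes edgeR called 10.9% there.

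In FFA against control, where 1.82% of all genes were called, 2 of 13 ADAM and ADAMTS genes, related metalloproteinases, were higher and 1 lower. They were adam8a, a leukocyte surface protease (0.59 ± 0.120, adjusted p = 0.0148), adam28 (0.62 ± 0.150, adjusted p = 0.0440) and the procollagen protease bmp1a (-0.23 ± 0.0561, adjusted p = 0.0449). Without control replicate 6 the adam8a call ended, and the adam28 and bmp1a calls stood in 2 of 11 such fits each. The adam8a call also ended with the replicate number as a block. In FFA against glucose, where 17.0% of all genes were called, adam8a alone was called (0.42 ± 0.114, adjusted p = 0.0172). That call too was lost with the block. None of the 13 was called in glucose against control by edgeR or DESeq2, and none had an unadjusted p under 0.05. Of all genes edgeR called 10.9% there.

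The list of matrix genes covers proteins that MMPs can cut. Of 22 collagen, fibronectin, laminin and proteoglycan genes none was called in FFA against control by edgeR, with 3 at an unadjusted p under 0.05 and 1 called, lower, by DESeq2. Their median change was -0.07, against -0.01 for all genes, and with 1.82% of all genes called a count of 0 is near the background. In glucose against control, where 10.9% of all genes were called (5.87% higher and 5.02% lower), 3 of 22 were higher and 0 lower. The 3 were col11a1a (0.27 ± 0.0763, adjusted p = 0.0286), col1a1b (0.38 ± 0.111, adjusted p = 0.0339) and col1a2 (0.32 ± 0.0964, adjusted p = 0.0404). These calls stood in 8, 5 and 4 of the 11 fits that left out a library. At an unadjusted p under 0.05 there were 11 of the 22 in glucose against control, and 25.1% of all genes. The median change of the 22 there was 0.15, against -0.003 for all genes. In FFA against glucose, where 17.0% of all genes were called, 2 of 22 were higher and 9 lower. These were led by col11a1a (-0.52 ± 0.0727, adjusted p = 0.000161), col2a1b (-0.47 ± 0.0820, adjusted p = 0.000922) and col1a2 (-0.42 ± 0.0916, adjusted p = 0.00454).

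**Figure D3:**
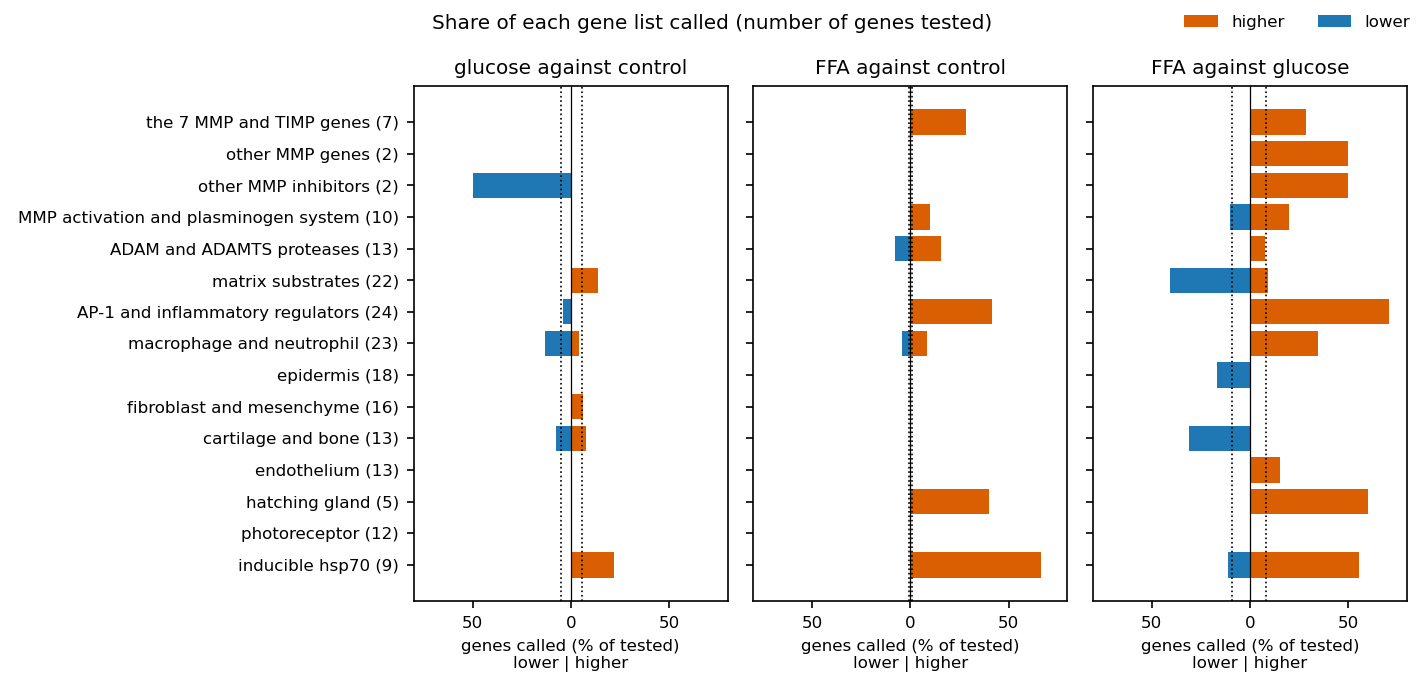
Share of the tested genes of each list that was called higher (to the right) or lower (to the left) in the 3 comparisons, in percent, with the number tested in brackets and dotted lines at the share of all genes called in that direction. In FFA against control the AP-1 and inflammatory list has 10 of 24 genes higher and 0 lower, while epidermis, mesenchyme, endothelium and matrix lists have none called.

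The AP-1 and inflammatory list holds transcription factors, among them AP-1 members that act on MMP genes in mammals, together with cytokine, signalling and prostaglandin genes. Of all genes 1.82% were called in FFA against control, 17.0% in FFA against glucose and 10.9% in glucose against control. Of 24 tested AP-1 and inflammatory regulator genes 10 were higher and 0 lower in FFA against control, with a median of 0.72. Against glucose 17 were higher and 0 lower, with a median of 0.80. In glucose against control 0 were higher and 1 lower, junba (-1.11 ± 0.228, adjusted p = 0.00485), a call lost when control 1, control 2 and glucose 4 were left out together. The 3 called with the smallest p in FFA against control were atf3 (1.26 ± 0.139, adjusted p = 0.000107), fosl1a (3.80 ± 0.487, adjusted p = 0.000321) and cebpb (1.66 ± 0.223, adjusted p = 0.000521). Against glucose they were atf3 (1.31 ± 0.132, adjusted p = 6.87e-06), junba (2.18 ± 0.221, adjusted p = 7.42e-06) and junbb (1.43 ± 0.212, adjusted p = 0.000249).

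The AP-1 partner gene fosl1a stood at 16.9, 92.1, 56.4, 85.6, 30.7 and 24.6 CPM in FFA replicates 1 to 6 and between 2.85 and 4.70 CPM in control. In glucose replicates 1 to 6 it stood at 11.4, 13.9, 9.39, 2.59, 8.41 and 5.93 CPM, above every control pool in 5 of 6, and was not called against control (1.23 ± 0.485, adjusted p = 0.117). The lowest FFA pool still lay above the highest glucose pool. The cytokine gene il1b stood at 1.46, 3.10, 2.03, 4.41, 2.49 and 2.53 CPM in the same FFA pools, from 20 to 61 counts, and between 0.234 and 0.795 CPM in control and 0.115 and 1.06 CPM in glucose. FFA replicates 2 and 4 were the 2 highest pools for fosl1a, il1b and mmp13a, and replicate 1 the lowest for fosl1a, il1b and mmp9. Neither MMP gene shared this order in full. For mmp9 the highest FFA pools were replicates 4 and 5 (50.8 and 47.7 CPM), with replicate 2 at 47.4 CPM. The lowest FFA pool for mmp13a was replicate 3 (12.7 CPM). For cebpb, a transcription factor of acute inflammation, FFA replicate 1 was again the lowest at 112 CPM and replicate 2 the highest at 282 CPM, where control ran from 59.8 to 77.6 CPM. In glucose cebpb ran from 47.2 to 120 CPM, again above every control pool in 5 of 6, and was not called against control (0.44 ± 0.217, adjusted p = 0.221).

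By Pearson correlation of log2 CPM over the 17 libraries, among 13226 genes averaging 1 CPM or more, the 3 genes most like mmp9 were atf3 (r = 0.962), trib3 (0.955) and sgk1 (0.951). Those most like mmp13a were sgk1 (0.954), mmp9 (0.949) and homeza (0.944). These values rest largely on the gap between FFA and the other libraries. On deviations from the group means they were 0.727, 0.685 and 0.671 for mmp9, and 0.714, 0.628 and 0.624 for mmp13a. They are descriptions over libraries that share depth and composition, with no test.

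**Figure D4:**
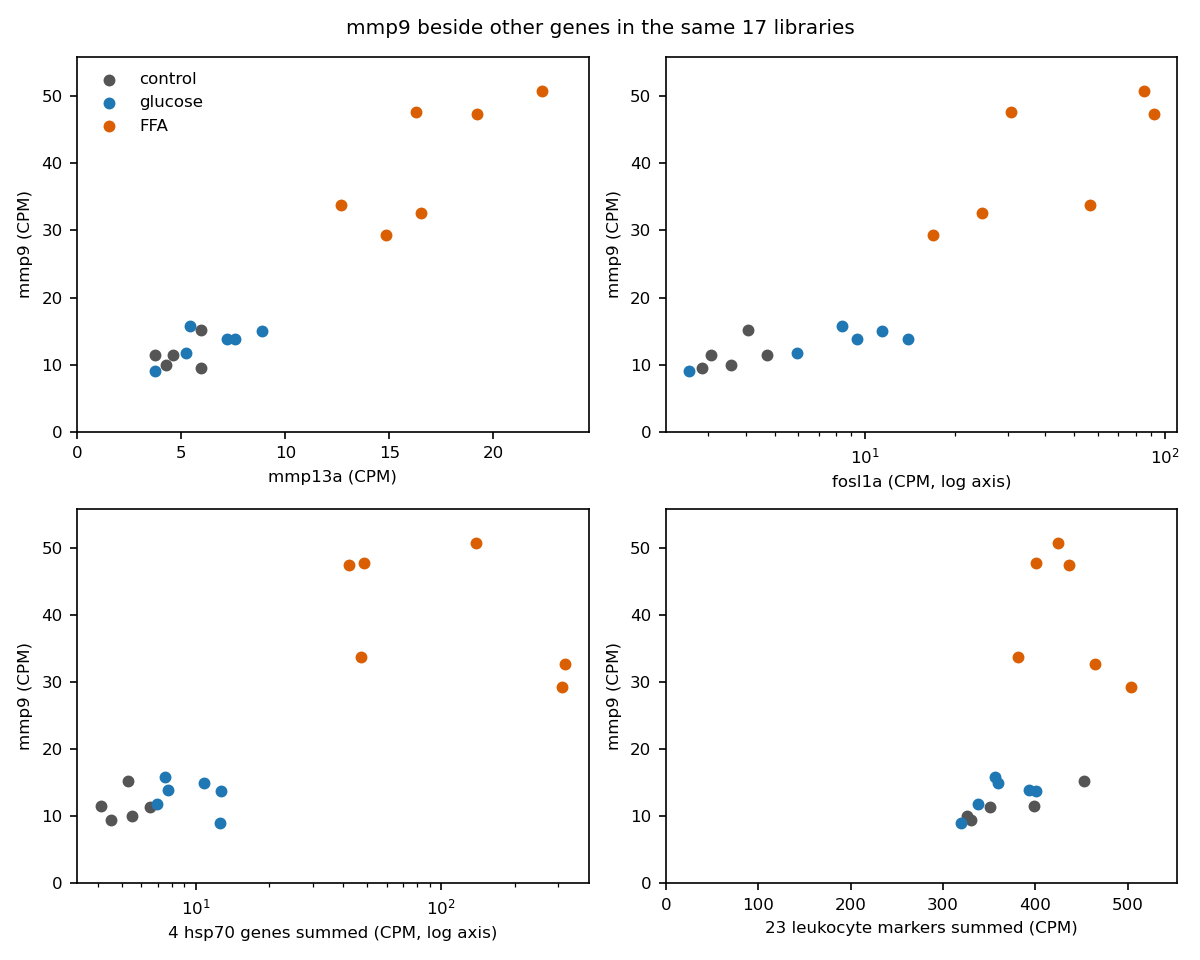
Level of mmp9 in CPM (vertical axes) in each of the 17 libraries against mmp13a, fosl1a (log axis), the sum of 4 hsp70 genes (log axis) and the sum of 23 leukocyte markers, all in CPM. FFA libraries are set apart from the others on the first 3 horizontal axes and overlap them on the leukocyte sum, and the 2 FFA libraries with the most hsp70 (312 and 321 CPM) are the 2 lowest of FFA in mmp9.

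Heat shock genes also separated the FFA pools, in another order. The summed level of hsp70l, hsp70.1, hsp70.2 and hsp70.3 was 312, 42.1, 47.2, 139, 48.7 and 321 CPM in FFA replicates 1 to 6, at most 6.53 CPM in control and between 6.96 and 12.7 CPM in glucose. FFA replicates 1 and 6, with the highest sums, held the 2 lowest values of mmp9 (29.3 and 32.6 CPM), with replicate 3 close above at 33.8 CPM. The gene mmp13a did not share this order. Over the FFA pools the log2 hsp70 sum had r = -0.575 with mmp9 and 0.057 with mmp13a. Counts of the hsp70 copies are uncertain as single genes. Of the 9 listed heat shock genes 6 were higher in FFA against control, where 1.82% of all genes were called. In glucose against control, where 10.9% of all genes were called, 2 of the 9 were higher. These 2 were hsp90aa1.1 (0.61 ± 0.121, adjusted p = 0.00351) and hspa4a (0.34 ± 0.0916, adjusted p = 0.0259). The hspa4a call ended without control replicate 1, without glucose replicate 5, and with control 1, control 2 and glucose 4 left out together. It also ended with the replicate number as a block. Those in FFA were led by hsp70.3 (4.84 ± 0.589, adjusted p = 0.000245), hsp70.2 (4.45 ± 0.598, adjusted p = 0.000521) and hsp70l (5.30 ± 0.724, adjusted p = 0.000616).

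Leukocytes are a known source of mmp9 and mmp13a, and their markers were read beside these genes. Of 23 tested macrophage and neutrophil markers, a list without MMP genes, 2 were higher and 1 lower in FFA against control, with a median of 0.33: the cathepsin gene ctss2.1 (0.96 ± 0.176, adjusted p = 0.00693), the lysozyme gene lyz (0.53 ± 0.113, adjusted p = 0.0184) and the macrophage gene mpeg1.2 (-0.75 ± 0.183, adjusted p = 0.0449). The lyz call ended without control replicate 1, and that of mpeg1.2 stood in 4 of 11 fits that left out a library. The neutrophil peroxidase gene mpx lay at 0.46 ± 0.122 (adjusted p = 0.0736). At an unadjusted p under 0.05 there were 15 of the 23, and DESeq2 called 5 higher and 2 lower. Of all genes edgeR called 1.82%, and 10.2% had an unadjusted p under 0.05. None of 10 defining markers, mpx, lyz and mpeg1.1 among them, was at 0 in any library.

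The summed level of the 24 markers in the files ran from 873 to 1181 CPM in control, 564 to 723 in glucose and 785 to 1043 in FFA. Most of the control sum (61.6 ± 1.50%) was cpa5, a carboxypeptidase gene that fell in glucose (-1.09 ± 0.0966, adjusted p = 1.48e-06). Without cpa5, a choice made after seeing these values, the sums ran from 326 to 453 CPM in control, 319 to 401 in glucose and 381 to 503 in FFA, and the FFA and control ranges overlapped. The means were 372 ± 53.9, 361 ± 31.2 and 435 ± 44.1 CPM. Within FFA, replicate 1 had the highest sum without cpa5 and the lowest mmp9, while replicate 6 had the highest sum of all markers (1043 CPM). Over the FFA pools, where cpa5 made up 51.6 ± 2.92% of the sum, the log2 sum of all markers had r = -0.352 with mmp9 and 0.227 with mmp13a. On deviations from the group means over the 17 libraries r was 0.339 and 0.523. What part leukocytes had in the rise of mmp9 and mmp13a was not tested.

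In glucose against control, where 10.9% of all genes were called, the same list of 23 had 1 gene higher, lyz, and 3 lower. The 3 were cpa5, ncf1 (-0.53 ± 0.0784, adjusted p = 0.000322) and mpeg1.2 (-1.18 ± 0.185, adjusted p = 0.000576). In FFA against glucose, where 17.0% of all genes were called, 8 of 23 were higher and 0 lower. The smallest p belonged to cpa5 (0.73 ± 0.0926, adjusted p = 6.43e-05), ctss2.1 (1.32 ± 0.170, adjusted p = 7.66e-05) and ncf1 (0.58 ± 0.0751, adjusted p = 8.16e-05). Which cells held the cpa5 counts was not tested.

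Markers of other tissues that could hold MMP transcripts were counted in the same way. In FFA against control edgeR called none of 18 epidermis genes (3 at an unadjusted p under 0.05, 1 lower by DESeq2), none of 16 fibroblast and mesenchyme genes (0 and 0), none of 13 cartilage and bone genes (3 and 0) and none of 13 endothelium genes (4 and 0). With 1.82% of all genes called, lists of this size are near the background at 0 calls. Of all genes 10.2% had an unadjusted p under 0.05. The epidermis, cartilage and bone, and endothelium lists lay above that share, and the mesenchyme list below it. In glucose against control, where 10.9% of all genes were called, 1 of 16 mesenchyme genes was higher. It was the regulator twist2 (0.36 ± 0.107, adjusted p = 0.0373). The call stood in 2 of 11 fits that left out a library. Of 13 cartilage and bone genes 1 was lower and 1 higher. The bone matrix gene spp1 was lower (-0.50 ± 0.124, adjusted p = 0.0149), a call lost with the replicate number as a block. The cartilage gene matn1 was higher (0.36 ± 0.106, adjusted p = 0.0351, a call that stood in 4 of 11). Both lists are near the share of all genes called. No epidermis or endothelium gene was called in that comparison by edgeR, with 5 and 2 at an unadjusted p under 0.05 and 1 and 0 by DESeq2.

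In FFA against glucose 17.0% of all genes were called. Of 18 epidermis genes 3 were lower and 0 higher, near that share: krt17 (-0.59 ± 0.140, adjusted p = 0.00842), evpla (-0.34) and agr1 (-0.38). The latter 2 calls stood in 4 and 5 of 12 fits that left out a library. Of 13 cartilage and bone genes 4 were lower and 0 higher, led by matn1 (-0.48 ± 0.101, adjusted p = 0.00350), sox9b (-0.29) and epyc (-0.36). The latter 2 stood in 5 and 3 of 12 such fits. Of 13 endothelium genes 2 were higher and 0 lower, again near the share of all genes. These were stab1 and pecam1, at 0.23 each, calls that stood in 5 and 4 of 12. None of 16 mesenchyme genes was called by edgeR (2 at an unadjusted p under 0.05, 1 by DESeq2). The hatching gland protease genes he1.1 and he1.2, also metalloproteinases but of the astacin family, rose in FFA against control by 3.98 ± 0.447 and 3.44 ± 0.510 (adjusted p = 0.000118 and 0.00127). They were the 2 called of 5 hatching gland genes tested there, where 1.82% of all genes were called. Against glucose 3 of the 5 were higher and 0 lower: he1.1, he1.2 and cd63, which is in this list too. None of 12 photoreceptor genes was called in any comparison by edgeR or DESeq2, and none had an unadjusted p under 0.05.

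The levels of mmp2 and mmp14b followed the share of counts that fell outside annotated genes. That share ran from 29.9% to 36.6%. The level of mmp2 fell as it rose over the 17 libraries, with Pearson r = -0.906 and Spearman rho = -0.902 (permutation p = 1e-05 for both, the smallest obtainable), as did that of mmp14b (r = -0.863, permutation p = 1e-05, and rho = -0.882, permutation p = 3e-05). Adjusted over the 5 genes for which the relation was tested, mmp9 and mmp13a not among them, these were 2.5e-05 and 5e-05 for mmp2 and 2.5e-05 and 7.5e-05 for mmp14b. Without the 2 farthest libraries, control replicate 1 and glucose replicate 4, r was -0.855 and -0.792. Within glucose and within FFA r was -0.929 and -0.840 for mmp2 and -0.892 and -0.702 for mmp14b. The sign was negative in control too, where no r is given because there were 5 pools and at least 6 were required. How many of all genes follow this share was not computed, so the relation is not shown to be particular to mmp2 and mmp14b. Over the 17 libraries these 2 genes also had r = 0.936 and 0.892 with the log2 sum of the epidermis list. The values were 0.918 and 0.832 for the fibroblast and mesenchyme list, and -0.770 and -0.810 for the photoreceptor list. What lies behind these relations was not tested.

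For mmp14a the relation was r = -0.653 (permutation p = 0.0048, adjusted 0.0080) and rho = -0.463 (permutation p = 0.063, adjusted 0.079), with r = -0.467 without the 2 libraries. Within glucose and within FFA r was -0.697 and -0.813 for mmp14a. For timp2a it was r = -0.362 (permutation p = 0.15, adjusted 0.19) and rho = -0.331 (permutation p = 0.19, adjusted 0.19), with r = -0.814 within glucose and 0.085 within FFA. For timp2b it was r = -0.141 (permutation p = 0.59, adjusted 0.59) and rho = -0.463 (permutation p = 0.063, adjusted 0.079). Without the 2 libraries the last 2 genes had r = -0.07 and 0.160. For timp2b the sign differed between groups, with r = -0.912 in glucose and 0.436 in FFA. Without a test, r with the same share was 0.008 for mmp9 and -0.009 for mmp13a over the 17 libraries. For mmp9 it was -0.722 in glucose and 0.680 in FFA. With this share as a covariate, mmp9 and mmp13a kept their rise in FFA against control (1.82 ± 0.169 and 1.79 ± 0.197, adjusted p = 1.11e-05 and 3.64e-05). In FFA against glucose timp2a (0.18 ± 0.0417, adjusted p = 0.00355) and mmp14a (0.15 ± 0.0430, adjusted p = 0.0135) were then called as well. Over all genes that fit called 3978 of 13539 in FFA against glucose, where the fit without the covariate called 2299.

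**Figure D5:**
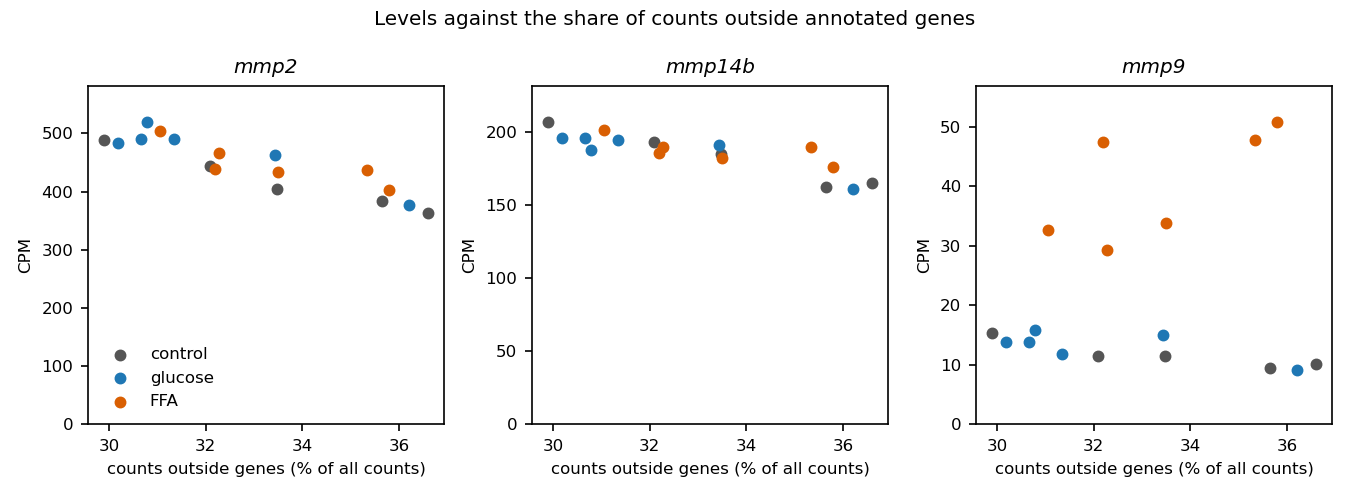
Levels of mmp2, mmp14b and mmp9 in CPM (vertical axes, from 0) in each library against the share of all counts that fell outside annotated genes, in percent. The levels of mmp2 and mmp14b fall along the axis in all 3 groups, with r = -0.906 and -0.863 over the 17 libraries, while the FFA libraries lie above the rest for mmp9 at every share.

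Among mmp2, mmp14a, mmp14b and timp2a, deviations from the group means over the 17 libraries had r from 0.690 (mmp14a and timp2a) to 0.918 (mmp2 and mmp14b) in the 6 pairs. Within FFA alone timp2a had r of 0.373 with mmp2, 0.148 with mmp14a and 0.489 with mmp14b. Deviations of mmp9 and mmp13a from their group means had r = 0.628. The 3 genes most like mmp2 over the 17 libraries were prrx1b (r = 0.957), a mesenchyme transcription factor gene, the fast muscle troponin gene tnnt3b (0.953) and zgc:153867 (0.953). Those most like mmp14b were slc38a5b (0.951), spint1a (0.941), an inhibitor of epithelial surface proteases, and zgc:92313 (0.938). For mmp14a they were si:ch73-173h19.3 (0.894), dusp19a (0.889) and si:ch211-197h24.9 (0.888).

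For timp2a the 3 most alike were zfp36l1b (0.928), si:dkey-9i23.16 (0.917) and tmem154 (0.908). For timp2b the likeness was lower, with the complement gene cfb (0.838), the chloride channel gene clic2 (0.826) and the glucagon gene gcga (0.824). Again these are descriptions over libraries that share depth and composition.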

How the data were processed

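Read counts per gene were deposited for 17 poly(A) libraries, made with a stranded kit and sequenced together per the labels' protocols. The deposited values are whole-number counts with no normalization. STAR, DESeq2 and the build danRer7 are named in the submitters' processing notes, without roles or versions, and no source used here names the counting tool, the annotation or the treatment of reads that match several places. The no-feature and ambiguous lines (29.9 to 36.6% and 0.213 to 0.252% of counts) were left out throughout. No replicate pair of the 40 matched within counting noise (chi-square over its degrees of freedom 4.33 to 68.8), so none was treated as 1 library deposited again. This does not show that the pools are biological replicates.

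Tests used edgeR 4.0.16 in R 4.3.3: filterByExpr with a minimum count of 10, TMM scaling and quasi-likelihood F-tests in 1 fit of 3 group means with 14 residual degrees of freedom. The SE is the absolute log2 fold change over the square root of F, and intervals are 95%. DESeq2 1.42.0 was an alternative. Correlation tests used 100000 permutations, two-sided. The procedure was tested on simulated counts. The genes and lists were chosen with earlier results of these data known. Named genes were the 7, called further family genes, the 3 called genes of smallest p of each other list and comparison, and the 3 most alike by correlation. The result of 1 gene named by this rule is not reported here. Others (mmp30, mmp21, timp4.2, a2ml, mpx and il1b) were added after their values were seen. No sequence is printed, since none of these genes' sequences was used here.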

Additional observations from a re-analysis of the deposited data

Results flagged for a closer look

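In 1 of 21 tests of a gene within a group, a library lay farther from the others than Dixon's 95% critical value allows: mmp14b in glucose replicate 4, at 161.5 CPM, where the other 5 glucose libraries held 188 to 196 CPM. Chance flags about 1 in 20 such groups. Glucose replicate 4 had 36.2% of its counts outside genes, the highest share in its group, and also the lowest glucose values of the other 6 genes. What part this share had in those values was not tested.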

How the results depend on the processing

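Of the alternative values computed for the 7 genes, 435 stayed on the same side of the threshold, 9 became called, 2 were no longer called and 2 reversed. Those that reversed were FFA against glucose with groups by the treatment tags, at -1.45 for mmp9 and -1.25 for mmp13a, where the tags nearly exchange the treatments. The tag grouping also gave -0.19 for mmp23bb and -0.92 for timp4.3 in that comparison, 2 calls of the 7 genes in glucose against control and 0 in FFA against control, and 106, 1 and 511 genes called over all genes in glucose against control, FFA against control and FFA against glucose.

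Over all genes, the fits called 1474, 246 and 2299 in these comparisons. The no-feature share as a covariate gave 2522, 649 and 3978, and 4 calls of the 7 genes in FFA against glucose. Removing control replicates 1 and 2 and glucose replicate 4 gave 589 for FFA against control and 3738 for FFA against glucose. By the share of counts outside genes these libraries ranked 1, 4 and 2 (36.6%, 35.6% and 36.2%). FFA replicate 4, which ranked 3 (35.8%), was kept, so the removal touched control and glucose only. For FFA against control DESeq2 gave 381 and a fit of the 2 groups alone 162. The cause of these moves was not tested. Leaving out 1 library gave 1070 to 2019, 157 (without control replicate 6) to 254, and 1654 to 2754 genes, and 0 to 1, 2 and 2 calls of the 7 genes. Scaled by library totals only, glucose against control had 652 genes higher and 856 lower, against 795 and 679, and with the 3 libraries removed it was 466 and 723. In FFA against control the split with those libraries removed was 290 and 299, against 149 and 97.

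The replicate numbers shared by the titles were not found to pair the libraries: same-numbered libraries correlated over 0.1 in 1 of 5, 2 of 5 and 1 of 6 cases, and 1 of 11, 1 of 11 and 3 of 12 libraries correlated best with their own number. With the replicate number as a block, 910, 118 and 1629 genes were called, with 0, 2 and 2 of the 7 genes. Depth limits timp4.3, mmp21 and il1b, with few counts per library.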
